A study of Mus musculus with 23 samples.

Results

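The hepatic PPARα and FGF21 axis was examined through 10 genes: the receptor gene *Ppara* and its relatives *Ppard* and *Pparg*, the hormone gene *Fgf21* with the receptor genes *Klb* and *Fgfr4*, the transcription factor gene *Creb3l3*, the coactivator gene *Ppargc1a*, and the target genes *Vnn1* and *Rab30*. The genes were picked by name, as every array probe that carried one of these gene names. They were 10 of the 21056 gene names with a measured probe, out of 37074 names on the array. Of their 16 probes, 15 passed the filter on low signals, and all 10 genes kept at least 1 probe. The probe that failed was the second of *Pparg*, which was well above background on 0 arrays.

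Liver RNA came from 23 male C57Bl6/J mice, either wild-type (WT) or lacking the pregnane X receptor PXR (Pxr-/-). Mice received the PXR ligand pregnenolone 16α-carbonitrile (PCN), 100 mg/kg in corn oil by daily intraperitoneal injection for 4 days, or corn oil alone (CONT), and all had free access to food. Liver was sampled in the light phase (ZT6, counted in hours from lights on), with 6 h between dosing and sampling. Of the WT mice, 6 were controls (WT CONT) and 5 received PCN (WT PCN), and of the Pxr-/- mice 6 were in either group. The labels speak of 6 mice in each group, and a sixth WT PCN mouse was not analysed here. WT mice were bought at 6 weeks of age and acclimatized for 2 weeks, whereas Pxr-/- mice were bred in the authors' facility and their age was not given separately, so colony and genotype cannot be told apart. The deletion was constitutive and was not limited to the liver.

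PPARα is a nuclear receptor of hepatocytes that binds fatty acids and switches on genes of fatty acid uptake, oxidation and ketone body synthesis, mostly during fasting. *Fgf21*, a hormone secreted by the liver, is one of its targets, and CREB-H (the product of *Creb3l3*) and PGC-1α (the product of *Ppargc1a*) act with PPARα on the fasting programme. FGF21 signals through FGF receptors together with the coreceptor β-Klotho (*Klb*), which in hepatocytes also serves FGFR4, the receptor for the gut hormone FGF15. The question asked of these genes was whether the liver's PPARα and FGF21 arm moved with PCN, and whether it did so without PXR.

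Values are normalized log2 signals, in which a difference of 1 is a doubling, and levels of different probes are not compared. A change is a log2 difference ± SE from 1 limma model over all 23 arrays with a term for the array washing batch. A gene was called when its Benjamini-Hochberg adjusted p over all probes was at most 0.05 and its change exceeded 1.5-fold. The separate arrays correlated at 0.977 to 0.997 with each other, and an array had 29510 to 33321 of its 56605 probes well above background. All 10 hepatocyte markers were measured on every array, *Alb* among them. The PXR target *Cyp3a11* rose by 3.55 ± 0.23 in WT mice (adjusted p = 4.1e-10) and differed by 0.31 ± 0.22 in Pxr-/- mice (adjusted p = 0.43). The *Nr1i2* probe, which measures the transcript of the deleted receptor gene, did not separate the genotypes in control mice (difference -0.03 ± 0.28, adjusted p = 0.98), so it does not check the genotype labels.

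The sequence just before each gene's transcription start is shown for the 3 genes whose transcripts were called in WT mice and had an entry in the RefSeq promoter table, and for *Creb3l3*, which held a match to a receptor motif. Each line gives the 250 bases before the start on the gene's own strand, 5′ to 3′, from GRCm38.p6. Capitals mark the motif matches, TATAAA in *Fgf21* and a direct repeat in *Creb3l3*. The windows are *Ppara* at chr15:85735526-85735775 (plus strand), *Fgf21* at chr7:45615491-45615740 (minus strand), *Ppargc1a* at chr5:51567726-51567975 (minus strand) and 1 of the 2 table entries of *Creb3l3* at chr10:81092592-81092841 (minus strand).
Ppara: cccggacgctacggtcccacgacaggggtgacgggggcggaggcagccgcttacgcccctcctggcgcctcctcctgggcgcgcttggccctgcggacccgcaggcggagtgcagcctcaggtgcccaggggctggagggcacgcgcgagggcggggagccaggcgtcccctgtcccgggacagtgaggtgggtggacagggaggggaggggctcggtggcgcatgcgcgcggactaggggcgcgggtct
Fgf21: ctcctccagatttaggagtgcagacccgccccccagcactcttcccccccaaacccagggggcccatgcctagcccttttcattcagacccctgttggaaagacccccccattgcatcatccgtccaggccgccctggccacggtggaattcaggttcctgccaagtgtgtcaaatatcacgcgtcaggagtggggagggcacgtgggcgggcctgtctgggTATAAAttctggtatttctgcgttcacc
Ppargc1a: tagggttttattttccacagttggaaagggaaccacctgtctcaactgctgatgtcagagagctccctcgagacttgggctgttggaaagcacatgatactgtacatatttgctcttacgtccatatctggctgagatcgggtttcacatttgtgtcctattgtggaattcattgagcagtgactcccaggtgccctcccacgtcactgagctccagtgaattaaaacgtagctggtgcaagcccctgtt
Creb3l3: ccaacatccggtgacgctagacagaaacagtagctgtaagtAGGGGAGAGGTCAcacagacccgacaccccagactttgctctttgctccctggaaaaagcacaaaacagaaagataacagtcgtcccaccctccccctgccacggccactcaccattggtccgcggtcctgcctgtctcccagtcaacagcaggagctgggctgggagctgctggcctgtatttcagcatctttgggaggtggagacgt

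The *Ppara* window was 76.4% G and C with 27 CpG dinucleotides, and that of *Fgf21* was 59.6% with 9. *Ppargc1a* stood at 48% with 5 CpG, against a median of 52.4% and 6 CpG over all 32851 windows. PPARs bind, with RXR, to direct repeats of AGGTCA spaced by 1 base (DR1, AGGTCANAGGTCA), and PXR and CAR bind among others to repeats spaced by 4 bases (DR4, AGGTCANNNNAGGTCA). Allowing 2 mismatches in the 12 fixed bases on either strand, 1 of the 11 windows of these genes held a DR1 match, in *Creb3l3*, and none held a DR4 match. Over all windows, 3.24% held a DR1 match and 2.57% a DR4 match, so these short windows hold such letters seldom. The TATAAA of *Fgf21* lay 28 to 23 bases before the start. That motif, which was looked up after the sequences had been seen, occurred on either strand in 12.4% of all windows. *Vnn1* and *Rab30* had no entry in the table.

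In WT mice, *Ppara* transcripts fell 2.07-fold with PCN, and *Fgf21* transcripts fell 4.51-fold. *Ppargc1a* and *Rab30* were the other members called. In total 4 of the 10 genes were called, all lower, where 2.39% of all measured genes were called lower and 3.79% higher. Another 3 genes, *Klb*, *Fgfr4* and *Creb3l3*, had an adjusted p of at most 0.05 but changed by less than 1.5-fold. The median change of the 10 was -0.51, and 8 of them were below 0, against a median of -0.02 over all 21056 genes, of which 54.4% were below 0. In bulk liver RNA, fewer hepatocytes and less transcript per hepatocyte cannot be told apart.

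**Figure D1:**
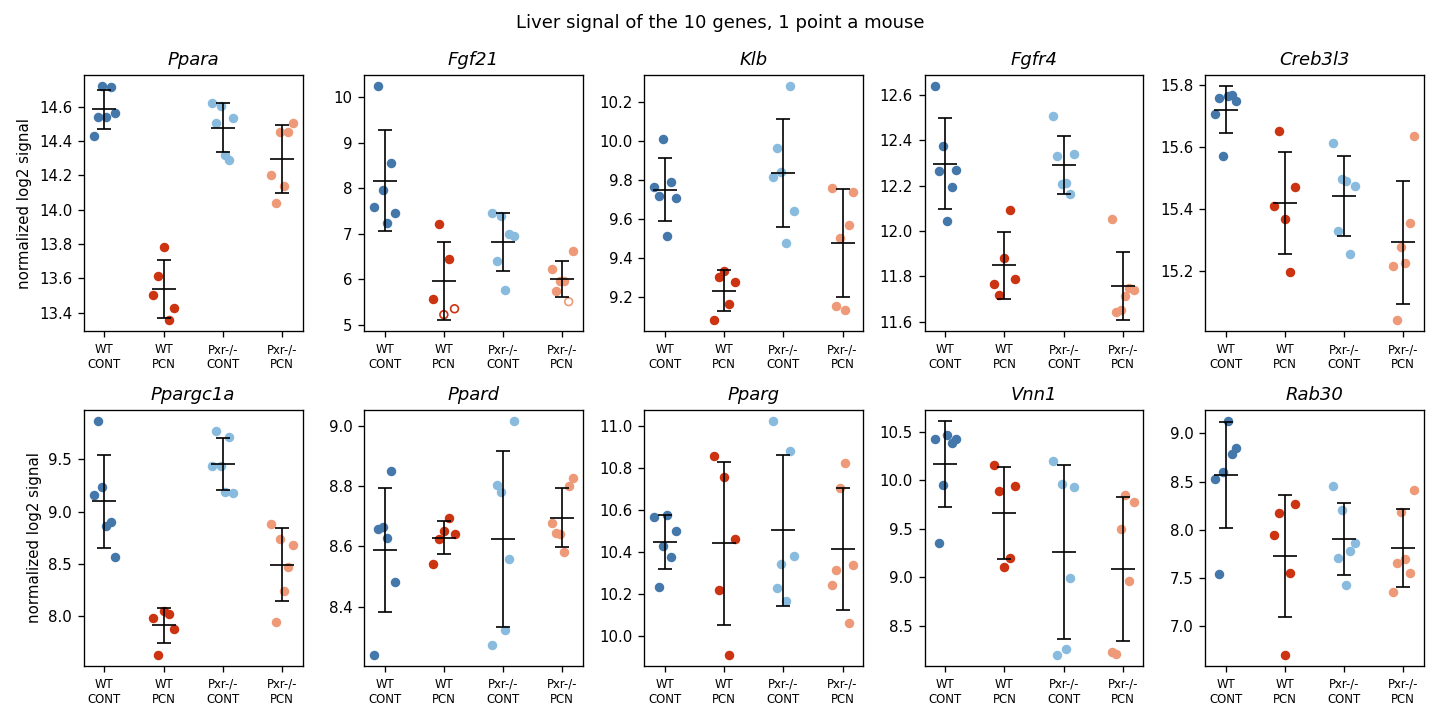
Normalized log2 signal (y axis) of each of the 10 genes in the 4 groups (x axis), with 1 point a mouse, the mean as a bar and the SD as whiskers; open circles mark arrays on which the probe was not well above background. The WT PCN points of *Ppara* lie between 13.36 and 13.78, below every other mouse.

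*Ppara* was read by 2 probes on chromosome 15. The leading one lies at 85632110 to 85632169 (mm9, the build of the array files). In WT CONT mice its log2 signal ran from 14.43 through a median of 14.55 to 14.72. The 5 WT PCN mice stood at 13.36, 13.43, 13.50, 13.61 and 13.78. No WT PCN mouse reached the lowest WT CONT mouse, nor the lowest Pxr-/- mouse. Pxr-/- CONT mice ran from 14.29 through 14.52 to 14.62, and Pxr-/- PCN mice from 14.04 through 14.32 to 14.50.

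The PCN change of *Ppara* in WT mice was -1.05 ± 0.10 (adjusted p = 2.2e-07), a 2.07-fold lower signal, with a 95% interval of -1.25 to -0.84. In Pxr-/- mice it was -0.18 ± 0.09 (adjusted p = 0.26; interval -0.38 to 0.01). The WT change was the more negative by 0.87 ± 0.14, written as an interaction of -0.87 (adjusted p = 8.8e-04; interval -1.15 to -0.58). *Ppara* was the 1 member called for this difference, where 0.242% of all genes were called lower and 0.807% higher. The second *Ppara* probe gave -1.003 ± 0.114 in WT mice (adjusted p = 3.2e-06), -0.28 ± 0.11 in Pxr-/- mice (adjusted p = 0.13) and -0.73 ± 0.16 for the difference (adjusted p = 0.017). Within washing batch 1 the interaction was -1.08 (adjusted p = 0.022), and within batch 2, with 2 WT PCN mice, it was -0.60 (adjusted p = 0.21).

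Ordered by mean, *Ppara* stood highest in WT CONT (14.58 ± 0.11, SD, n = 6), then in Pxr-/- CONT (14.48 ± 0.14, n = 6), Pxr-/- PCN (14.30 ± 0.20, n = 6) and WT PCN (13.54 ± 0.17, n = 5). The first neighbours were not called different (-0.11 ± 0.09, limma adjusted p = 0.71), nor were the next (adjusted p = 0.26). The step from Pxr-/- PCN to WT PCN was called, with *Ppara* 0.76 ± 0.10 higher in Pxr-/- PCN mice (adjusted p = 3.7e-05).

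*Fgf21* was read by 1 probe on chromosome 7, at 52869305 to 52869364 (mm9). Its log2 signal in WT CONT mice ran from 7.23 through a median of 7.77 to 10.24. The highest of them, replicate 2, stood apart from the next at 8.54. In WT PCN mice the values were 5.22, 5.35, 5.56, 6.44 and 7.22, so that the highest treated mouse lay just under the lowest control mouse. Signal well above background was found in 6 of 6 WT CONT mice but in 3 of 5 WT PCN mice. Its fold change therefore compares a measured level with one partly at background.

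The PCN change of *Fgf21* in WT mice was -2.17 ± 0.43 (adjusted p = 0.0011), a 4.51-fold lower signal. Without WT CONT replicate 2 it was -1.80 ± 0.36 (adjusted p = 0.0014). On Agilent's background-subtracted processed signal the change was -3.17, the largest among the alternatives. Within washing batch 1 it was -2.25 (adjusted p = 0.0057), and within batch 2 it was -2.09 and not called (adjusted p = 0.15).

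*Fgf21* in Pxr-/- mice ran from 5.77 through 6.97 to 7.45 in CONT and from 5.50 through 5.96 to 6.63 in PCN, and the groups overlapped. The change there was -0.82 ± 0.41 (adjusted p = 0.25), with an interval of -1.69 to 0.05. The probe was well above background in 6 of 6 Pxr-/- CONT and 5 of 6 Pxr-/- PCN mice. Levels near background therefore also enter this change and the comparison of the 2 changes. The difference between the genotypes in the PCN effect was -1.35 ± 0.60 and was not called (adjusted p = 0.30; interval -2.61 to -0.09), so the WT change was not shown to differ from that in Pxr-/- mice. Between control mice, Pxr-/- minus WT, *Fgf21* differed by -1.34 ± 0.41 (adjusted p = 0.20), and by -0.95 ± 0.34 without WT CONT replicate 2 (adjusted p = 0.31). By mean, the order was WT CONT (8.17 ± 1.11, SD, n = 6), Pxr-/- CONT (6.82 ± 0.64, n = 6), Pxr-/- PCN (6.00 ± 0.39, n = 6) and WT PCN (5.96 ± 0.85, n = 5), and no step between neighbours in it was called.

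**Figure D2:**
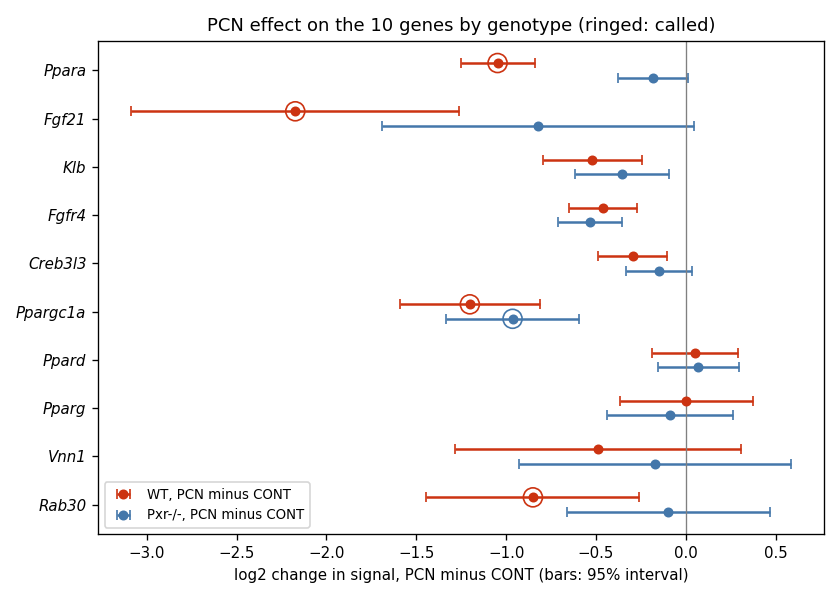
Log2 change with PCN (x axis) of each gene in WT mice (red) and in Pxr-/- mice (blue), as points with 95% intervals from the limma fit; rings mark called changes. *Ppara* at -1.05 in WT and -0.18 in Pxr-/- mice has intervals that do not overlap, whereas those of *Ppargc1a* and *Fgfr4* do.

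The genes of FGF reception changed by under 1.5-fold over all mice. *Klb*, the β-Klotho coreceptor, ran from 9.51 through 9.74 to 10.01 in WT CONT mice and stood at 9.09, 9.16, 9.28, 9.31 and 9.34 in WT PCN mice. The groups did not overlap, yet the change of -0.52 ± 0.13 (adjusted p = 0.0061) was under 1.5-fold. A second *Klb* probe, also above background on all arrays, was not called (-0.10 ± 0.11, adjusted p = 0.55). That probe was dim, with a mean log2 signal of 5.78 against 9.59 for the leading one, which limits what its small change shows. The leading *Klb* probe changed in Pxr-/- mice by -0.36 ± 0.12 (adjusted p = 0.088). In the values the authors deposited, the WT change of *Klb* was -0.37 (adjusted p = 0.076). Within washing batch 1 it was -0.68 and called (adjusted p = 0.0077), and within batch 2 it was -0.33 (adjusted p = 0.38).

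*Fgfr4*, the FGF receptor gene of hepatocytes, was lower with PCN in both genotypes. Its signal in Pxr-/- mice ran from 12.16 to 12.51 in CONT and from 11.64 to 12.05 in PCN, and the groups did not overlap. The change was -0.53 ± 0.09 in Pxr-/- mice (adjusted p = 0.0013) and -0.46 ± 0.09 in WT mice (adjusted p = 8.8e-04), both under 1.5-fold. The genotypes differed by 0.07 ± 0.12 in this effect (adjusted p = 0.84), with an interval of -0.19 to 0.33. A second probe gave -0.44 ± 0.09 in WT mice and -0.46 ± 0.09 in Pxr-/- mice, and another gave -0.23 ± 0.11 (adjusted p = 0.13) and -0.30 ± 0.10 (adjusted p = 0.075).

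*Creb3l3* stood between 15.57 and 15.77 in WT CONT mice, and the WT PCN mice stood at 15.20, 15.37, 15.41, 15.47 and 15.65. The WT change was -0.30 ± 0.09 (adjusted p = 0.024), and in the deposited values it was -0.05 (adjusted p = 0.72). For Pxr-/- mice *Creb3l3* differed by -0.15 ± 0.09 between PCN and CONT (adjusted p = 0.34).

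*Ppargc1a*, which encodes the coactivator of PPARα and of gluconeogenic genes, fell with PCN in both genotypes. WT CONT mice ran from 8.57 through 9.03 to 9.87, and WT PCN mice stood at 7.63, 7.87, 7.98, 8.02 and 8.04. Pxr-/- CONT mice ran from 9.18 through 9.44 to 9.77 and Pxr-/- PCN mice from 7.94 through 8.58 to 8.88. Within each genotype the treated and control mice did not overlap. The change was -1.20 ± 0.18 in WT mice (adjusted p = 9.9e-05) and -0.96 ± 0.18 in Pxr-/- mice (adjusted p = 0.0031), which are 2.30-fold and 1.95-fold lower signals.

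The second *Ppargc1a* probe was called as well, at -0.94 ± 0.15 in WT mice (adjusted p = 1.2e-04) and -0.85 ± 0.14 in Pxr-/- mice (adjusted p = 0.0015). The difference between the genotypes in this effect was -0.24 ± 0.25 (adjusted p = 0.73), with an interval of -0.77 to 0.30. Within washing batch 2 the WT change was -1.26 (adjusted p = 0.061). The Pxr-/- change was -0.77 within batch 1 (adjusted p = 0.073) and -1.16 within batch 2 (adjusted p = 0.12). *Ppargc1a* was thus the 1 member called lower with PCN in Pxr-/- mice, where 0.86% of all genes were called lower and 1.42% higher. The median change of the 10 genes in Pxr-/- mice was -0.18, with 9 below 0, against -0.01 over all genes, of which 53.1% were below 0.

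The other PPAR genes showed no called change. *Ppard*, the gene of the widely expressed PPARδ, changed by 0.05 ± 0.11 in WT mice (interval -0.19 to 0.29) and by 0.07 ± 0.11 in Pxr-/- mice (interval -0.16 to 0.30). *Pparg*, the gene of the adipocyte regulator PPARγ, changed by 0.00 ± 0.18 (interval -0.37 to 0.37) and by -0.09 ± 0.17 (interval -0.44 to 0.26). The intervals of *Ppard* leave out a change as large as that of *Ppara* in WT mice. Those of *Pparg* do so too, with wider spread.

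*Vnn1* and *Rab30* are PPARα-responsive genes, of a membrane-anchored pantetheinase and a small GTPase. *Rab30* ran from 7.54 through 8.70 to 9.13 in WT CONT mice, and the WT PCN mice stood at 6.70, 7.55, 7.94, 8.17 and 8.26. Its WT change was -0.85 ± 0.28 (adjusted p = 0.033). Leaving out any of 5 arrays ended that call (WT CONT replicates 4, 5 and 6, and WT PCN replicates 3 and 4; adjusted p up to 0.14, with a change of -0.57 without WT PCN replicate 3). It was also lost within each washing batch (-0.72 and -1.07), without the filter on low signals (adjusted p = 0.055), with only the 2 WT groups in the fit (adjusted p = 0.068), with arrays stacked by replicate (adjusted p = 0.055) and with the replicate number as a block (-0.79, adjusted p = 0.071). With each array left out in turn, the WT change of *Rab30* ran from -1.05 to -0.57. *Rab30* changed in Pxr-/- mice by -0.10 ± 0.27 (adjusted p = 0.88), and the difference between the genotypes in the effect was not called (-0.75 ± 0.39, adjusted p = 0.39).

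*Vnn1* varied widely between mice and overlapped between groups. WT CONT mice ran from 9.36 through 10.40 to 10.47 and WT PCN mice stood at 9.10, 9.20, 9.88, 9.94 and 10.16. Pxr-/- CONT mice ran from 8.20 to 10.20 and Pxr-/- PCN mice from 8.21 to 9.85. The PCN change was -0.49 ± 0.38 in WT mice (adjusted p = 0.38) and -0.17 ± 0.36 in Pxr-/- mice (adjusted p = 0.84). WT CONT replicate 2 was the lowest of its group in both *Vnn1* and *Rab30*. Without that mouse the WT change of *Vnn1* was -0.67 (limma adjusted p = 0.22). Pxr-/- CONT mice lay below WT CONT mice by a change of -0.91 ± 0.36, which was not called (adjusted p = 0.35).

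Groups without overlap were counted for all genes as well. In WT mice, 4 of the 10 genes (*Ppara*, *Fgf21*, *Klb* and *Ppargc1a*) had every PCN mouse below every control mouse, as did 6.51% of all genes. In Pxr-/- mice 2 genes did (*Fgfr4* and *Ppargc1a*), as did 1.58% of all genes.

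Between genotypes, 0 of the 10 genes were called in control mice by limma, where 0.0807% of all genes were called lower and 0.228% higher in Pxr-/- mice. At an unadjusted p of at most 0.05, 4 of the 10 passed, as did 12.2% of all genes. In PCN-treated mice, *Ppara* and *Ppargc1a* were called higher in Pxr-/- than in WT mice, where 0.731% of all genes were called higher and 1.36% lower. The second *Ppara* probe was higher by 0.71 ± 0.11 (adjusted p = 5.3e-04). For *Ppargc1a* the difference was 0.60 ± 0.18 with an adjusted p of 0.0498. That call was lost without any of 17 of the 23 arrays (adjusted p up to 0.13), which included all 5 WT PCN mice, and the second probe missed it (0.43 ± 0.15, adjusted p = 0.073). In the deposited values neither was called, but there the median difference of all genes was -0.19, with 1036 genes called lower and 59 higher (5.39% of calls) instead of 287 and 154 (34.9%). The *Ppara* difference was 0.48 (adjusted p = 0.0019), under 1.5-fold, or 0.67 relative to that median, and that of *Ppargc1a* was 0.37 (adjusted p = 0.15), or 0.56 relative to it. Within washing batch 2 the *Ppara* difference was 0.53 (adjusted p = 0.18) and that of *Ppargc1a* 0.45 (adjusted p = 0.60). *Fgf21* was not called between the genotypes under PCN (0.01 ± 0.43, limma adjusted p = 0.995, interval -0.91 to 0.92). Its probe was well above background in 3 of 5 WT PCN and 5 of 6 Pxr-/- PCN mice. A difference near 0 between 2 groups near background does not show equal levels. The comparisons between genotypes share mice with the PCN comparisons above.

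The scaling of arrays bears on these changes. In the values the authors deposited, the median change of all genes with PCN in WT mice was 0.12 instead of -0.02, and 262 genes were called lower and 1383 higher (84.1% of calls) instead of 504 and 798 (61.3%). Relative to that median, the WT changes were -0.93 for *Ppara*, -2.20 for *Fgf21*, -1.17 for *Ppargc1a* and -0.83 for *Rab30*. The same 4 genes were called on those values, and the interaction of *Ppara* was -0.67 (adjusted p = 0.012). On them, the share of calls that were higher also moved in Pxr-/- mice, from 62.4% to 73.2%, for the interaction, from 76.9% to 86.9%, and between control mice, from 73.8% to 43.4%, where the median was -0.11. The *Fgf21* difference between control mice was -1.47 there (adjusted p = 0.074), or -1.36 relative to that median.

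Whether *Fgf21* followed *Ppara* from mouse to mouse was examined within groups. Across the 6 WT CONT mice Pearson's r was 0.13 (two-sided exact permutation p = 0.80, adjusted over 4 relations 0.80) and Spearman's rho 0.37 (exact p = 0.50, adjusted 0.50). In the 6 Pxr-/- CONT mice r was 0.65 (exact p = 0.16, adjusted 0.62) and rho 0.66 (exact p = 0.18, adjusted 0.50). In the 6 Pxr-/- PCN mice r was 0.25 (exact p = 0.63, adjusted 0.80) and rho 0.37 (exact p = 0.50, adjusted 0.50). The WT PCN group was given no correlation of its own, and *Fgf21* was well above background in 3 of its 5 mice. These 5 mice do enter the group-centred value. Over all 23 mice after subtraction of each group's mean, r was 0.16 (permutation p = 0.44, adjusted 0.80) and rho 0.16 (permutation p = 0.47, adjusted 0.50), so no within-group relation was detected.

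The within-group values turned on scaling and on single mice. In Pxr-/- CONT mice r was 0.03 with arrays stacked by group (exact p = 0.96), 0.49 on the deposited values (exact p = 0.32) and 0.75 on processed signal (exact p = 0.085). Without WT CONT replicate 2, the mouse with the highest *Fgf21*, the WT CONT r was 0.73 over 5 mice (exact p = 0.15). Without Pxr-/- CONT replicate 5, r in that group was 0.97 over 5 mice (exact p = 0.0083, the smallest that 5 mice allow). Without Pxr-/- PCN replicate 6, r in that group was -0.28 (exact p = 0.63). Leaving out the 2 mice farthest from the median *Ppara* value left 4 mice in a group. It gave an r of 0.20 in WT CONT, 0.97 in Pxr-/- CONT and -0.04 in Pxr-/- PCN. Over the 21 group-centred mice left it gave 0.25. Within washing batches the group-centred r was 0.35 in batch 1 (12 mice, permutation p = 0.38) and 0.07 in batch 2 (11 mice, permutation p = 0.67).

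**Figure D3:**
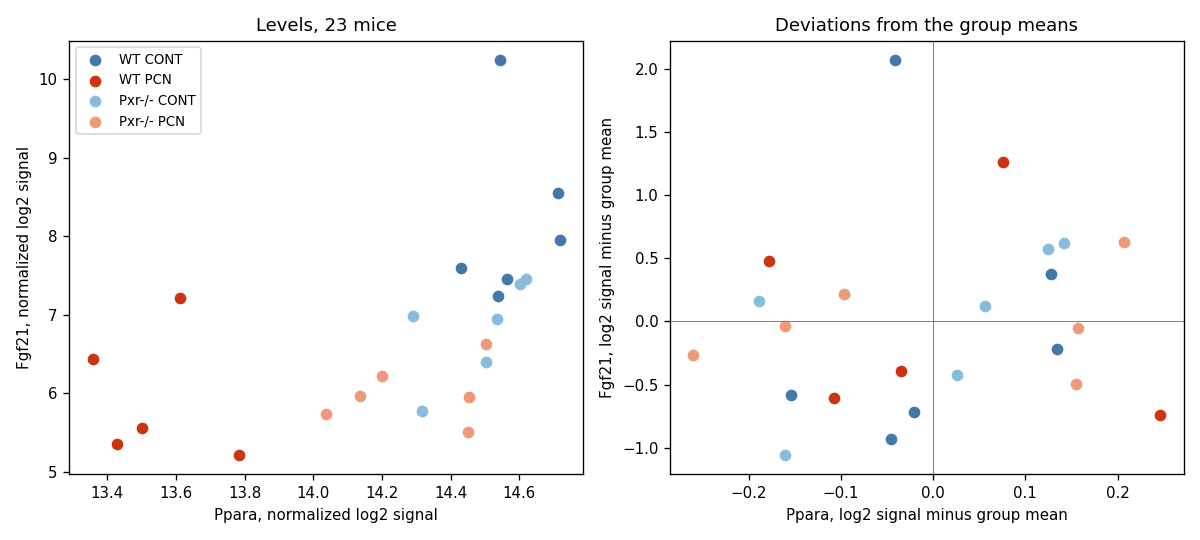
*Fgf21* (y axis) against *Ppara* (x axis) in normalized log2 signal for 23 mice coloured by group (left), and the same after subtraction of the group means (right). The WT PCN mice lie at low *Ppara*, while within groups the points show no detected relation (r = 0.16).

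Across the 45 pairs of the 10 genes, whose correlations were computed after values had been seen, 29 had a group-centred r above 0. After adjustment over the 45, 1 pair passed by both measures: *Vnn1* with *Rab30* (r = 0.73, permutation adjusted p = 0.0018; rho = 0.75, adjusted p = 0.0058). It held within washing batch 1 (r = 0.88) and batch 2 (r = 0.69), and r was 0.73 without the 2 mice farthest in *Vnn1*. The next pair was *Klb* with *Ppargc1a* (r = 0.57, permutation adjusted p = 0.16; rho = 0.62, adjusted p = 0.12), and the third was *Ppara* with *Creb3l3* (r = 0.55, permutation adjusted p = 0.24; rho = 0.50, adjusted p = 0.27). The values of a pair come from the same array, so they share its RNA and its normalization.

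**Figure D4:**
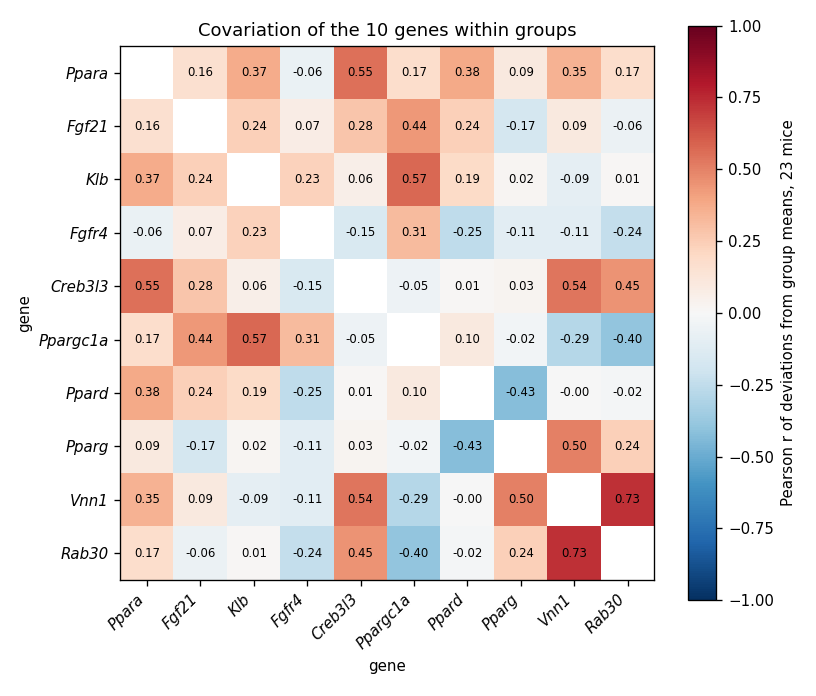
Pearson correlation (colour and number) of each pair of the 10 genes (both axes) over 23 mice after subtraction of group means. *Vnn1* with *Rab30* at 0.73 is the one pair that passed adjustment, and *Ppara* with *Fgf21* stands at 0.16.

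Among 15099 genes with a RefSeq symbol, those most like *Ppara* over the 23 arrays, group differences included, were *Arsa* (arylsulfatase A, r = 0.93), *0610005C13Rik* (r = 0.93), *Cyp2d13* (r = 0.93), *Tmub1* (r = 0.92) and *Apol7a* (r = 0.92). With group means removed these were 0.54 to 0.77. *Fgf21* ranked 1866th for *Ppara* (r = 0.54), behind *Ppargc1a* at 341st (r = 0.76) and *Klb* at 508th (r = 0.73). Most like *Fgf21* were *Plekhf2*, *Hsdl2*, *Rbm38*, *Plekha1* and *Bdnf*, with r from 0.83 to 0.84 over all arrays and 0.50 to 0.76 with group means removed. These correlations describe 23 arrays that share groups and normalization.

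The other genes of the pathway came from lists, chosen like the 10 with earlier results of these data known, that held none of the 10. Of 53 measured PPARα target genes, 13 were called lower and 2 higher with PCN in WT mice, against 2.39% and 3.79% of all genes. Their median change was -0.45 and 45 were below 0, against 54.4% of all genes. In Pxr-/- mice 0 of the 53 were called by limma, with a median of -0.12, and 11 had an unadjusted p of at most 0.05, as did 22.9% of all genes. On the authors' deposited values 8 were called lower and 3 higher in WT mice. Called lower in WT mice were the microsomal fatty acid hydroxylases *Cyp4a31* (-1.91 ± 0.41), *Cyp4a10* (-1.70 ± 0.35) and *Cyp4a14* (-1.03 ± 0.35), whose near-identical sequences leave the assignment of probes to single genes uncertain. The acyl-CoA thioesterase *Acot1* changed by -1.73 ± 0.30 (adjusted p = 2.8e-04). The mitochondrial carnitine palmitoyltransferase *Cpt1a* changed by -0.77 ± 0.11 (adjusted p = 4.1e-05) in WT and by 0.02 ± 0.10 in Pxr-/- mice. *Cpt1a* was the 1 PPARα target called for the difference between the genotypes (-0.79 ± 0.15, adjusted p = 0.0052), where 0.242% of all genes were called lower.

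The lipid droplet coat genes *Plin4* (-1.54 ± 0.46), *Plin2* (-0.75 ± 0.17) and *Plin5* (-0.65 ± 0.18) were also called lower in WT mice, as were *Retsat* (-1.12), *Mgll* (-0.88), *Acaa1b* (-0.84), *Krt23* (-0.75) and *Eci2* (-0.60). Called higher were *Pdk4*, the kinase that shuts off pyruvate dehydrogenase (1.00 ± 0.22, adjusted p = 0.0026), and *Hilpda*, an inhibitor of adipose triglyceride lipase (0.77 ± 0.15, adjusted p = 0.0010). The log2 signal of *Pdk4* ran from 6.56 through 7.20 to 7.99 in WT CONT mice and from 7.95 through 8.25 to 8.31 in WT PCN mice. It ran from 6.87 through 7.44 to 8.10 in Pxr-/- PCN mice, where the change was 0.05 ± 0.21. In control mice, 1 target was called lower in Pxr-/- mice, the carnitine transporter *Slc22a5* (-0.65 ± 0.12, adjusted p = 0.0092), as were 0.0807% of all genes. Of the 53, 46 were below 0 in that comparison, with a median of -0.20, against 51.4% of all genes below 0.

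**Figure D5:**
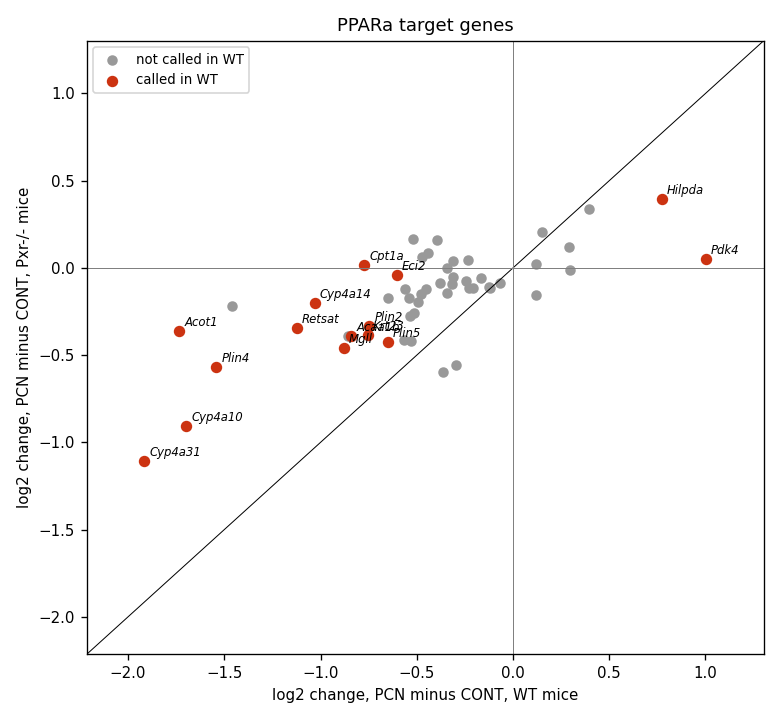
Log2 change with PCN of 53 PPARα target genes in WT mice (x axis) and in Pxr-/- mice (y axis); red points were called in WT mice and the line marks equal change. Most points lie left of the line, with 43 of 53 changing more negatively in WT mice, against 52.1% of all genes. *Pdk4* and *Hilpda* lie to the right of 0.

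Of 25 measured regulators of *Fgf21*, 5 were called lower in WT mice and 1 higher, against 2.39% and 3.79% of all genes. The lower ones were *Nr0b2* (SHP, a corepressor, -1.03 ± 0.33), *Klf15* (-0.87 ± 0.17), *Nr1d1* (-0.78 ± 0.27), *Nr2f2* (-0.72 ± 0.12) and *Atf5* (-0.60 ± 0.21), and the higher one was the orphan receptor *Nr4a1* (1.00 ± 0.19, adjusted p = 7.3e-04). In Pxr-/- mice the 5 lower ones changed, in the same order, by -0.57, -0.56, -0.69, -0.46 and -0.55, and none was called. Of these, *Klf15* (limma adjusted p = 0.043) and *Nr2f2* (limma adjusted p = 0.015) fell short in fold change only. For none of the 5 was the difference between the genotypes called (limma adjusted p from 0.50 to 0.96). Another 3 regulators were called higher in Pxr-/- mice, *Nfil3* (1.06 ± 0.25), *Nr1i3* (CAR, 0.97 ± 0.19) and *Ahr* (0.92 ± 0.17), as were 1.42% of all genes. The balance of calls in WT mice turned with scaling: on the deposited values 2 regulators were called lower and 4 higher, and with arrays stacked by replicate 1 and 2. Without the filter 2 were called lower and 1 higher, and within washing batch 1 these were 2 and 3. Called for the difference between the genotypes were *Nr1i3* (-1.27 ± 0.28, adjusted p = 0.021) and *Nr1h4* (FXR, -0.62 ± 0.14, adjusted p = 0.021), both more negative in WT mice. Of all genes, 0.242% were called lower for that difference.

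Of 19 genes linked to CREB-H, 5 were called lower in WT mice, led by *Pck1* (-1.70 ± 0.27, adjusted p = 1.2e-04) and the fatty acid binding protein gene *Fabp2* (-1.55 ± 0.16, adjusted p = 1.1e-06). *Fabp2* (-0.81 ± 0.15) and *Elovl2* (-0.63 ± 0.15) were called lower in Pxr-/- mice too, and *Apoa1* higher (0.62 ± 0.10). On the deposited values 3 of the 19 were called lower and 1 higher in WT mice. Of 20 PGC-1α targets, 1 was called in WT mice, *Pck1*, the gluconeogenic enzyme that is on both lists. In Pxr-/- mice limma called 0 of the 20, and 7 had an unadjusted p of at most 0.05, as did 22.9% of all genes. Of 24 genes of the fasting and glucagon response, *Pck1* and *Klf15* were called lower in WT mice and *Pdk4*, *Nr4a1* and *Cebpb* (0.68 ± 0.19) higher. Of the 24, limma called 0 in Pxr-/- mice, and 6 had an unadjusted p of at most 0.05, as did 22.9% of all genes. Beside the counts of these 3 lists, 2.39% of all genes were called lower and 3.79% higher in WT mice. In Pxr-/- mice these shares were 0.86% and 1.42%.

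Among 18 measured genes of FGF receptors and signalling, *Fgf1* (-0.66 ± 0.13) and the adaptor *Frs3* (-0.61 ± 0.14) were called lower in WT mice. *Egr1*, an early response gene, was called higher in WT (2.48 ± 0.70) and in Pxr-/- mice (2.97 ± 0.67), and the decoy receptor *Fgfrl1* was called lower in Pxr-/- mice (-0.76 ± 0.18). Both lower calls in WT mice were lost on the deposited values and with arrays stacked by replicate, where 0 of the 18 were called lower and 3 higher. Of 21 PPAR partners, 0 were called in WT mice by limma and 1 in Pxr-/- mice, the coactivator *Ppargc1b* (-1.07 ± 0.19). At an unadjusted p of at most 0.05, 9 of these partners passed in WT mice, where 35.9% of all genes did, and 1 was called higher on the deposited values. Of 12 PPARγ targets, *Plin4* was called lower and *Fabp4* higher (0.61 ± 0.16) in WT mice, and *Fabp5* lower in Pxr-/- mice (-1.43 ± 0.35). The adipocyte genes *Adipoq* and *Retn* were set aside by the filter on low signals. Beside the counts of these lists, 2.39% of all genes were called lower and 3.79% higher in WT mice. In Pxr-/- mice these shares were 0.86% and 1.42%.

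Markers of some other liver cells moved beside these changes. Of 11 stellate cell markers, 4 were called higher with PCN in each genotype. Of all genes, 3.79% were called higher in WT and 1.42% in Pxr-/- mice. The summed log2 signal of the 11 ran from 14.59 to 15.28 in WT CONT and from 15.08 to 15.69 in WT PCN mice. In Pxr-/- mice it ran from 14.43 to 15.09 in CONT and from 14.47 to 15.62 in PCN. Of 7 measured cholangiocyte markers 1 was called higher in WT mice, with sums of 10.73 to 12.29 in CONT and 11.81 to 13.01 in PCN. Of the measured Kupffer cell (12), endothelial (12), lymphocyte (8), blood (5) and pancreas (4) markers, limma called 0 in either PCN comparison. At an unadjusted p of at most 0.05, 7 of these 41 passed in WT mice, where 35.9% of all genes did. In Pxr-/- mice 7 passed, where 22.9% of all genes did. Of 8 adipocyte markers 6 were measured and 1, *Fabp4*, was called higher in WT mice, with sums of 10.64 to 11.09 in WT CONT and 10.69 to 11.55 in WT PCN mice. Of 10 hepatocyte markers limma called 0 in WT mice, where 1 had an unadjusted p of at most 0.05, as did 35.9% of all genes. Their sum in WT mice ran from 20.69 to 20.99 in CONT and from 20.71 to 20.81 in PCN. For Pxr-/- mice 1 of the 10, *Apoa1*, was called higher, and the sum ran from 20.79 to 20.95 in CONT and from 20.81 to 20.91 in PCN. The part of other cell types in the changes of *Ppara* and *Fgf21* was not tested.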

How the data were processed

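Liver RNA of 23 mice was hybridised on Agilent 1-colour arrays, 1 array a mouse. Per the file headers, the spot intensity values came from Agilent Feature Extraction 10.10.1.1, with probe positions on mm9. Normalized log2 values of 32574 probes were deposited too, and per the authors' methods these were filtered, corrected for washing batch and normalized by CrossNorm. Those values served as an alternative.

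Here the median signal was taken to log2, 2225 outlier spots were set to missing, and replicate spots were averaged. A probe was kept if well above background on over 50% of the arrays of at least 1 group (32087 of 56605 probes), and arrays were quantile normalized, since CrossNorm was not available. Differences were fitted with limma 3.58.1 in R 4.3.3 over all 23 arrays (18 residual degrees of freedom), with washing batch as a term and Benjamini-Hochberg adjustment over all kept probes. There were 2 washing batches, each with 3 arrays of every group except for 2 WT PCN arrays in batch 2, 8 slides and 1 scan day. Where several kept probes named 1 gene, the brightest on average stood for it. Dim probes limit precision, and probe counts give no sequencing depth. Nothing states that samples of a group were other than separate mice.

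Correlations were computed with scipy 1.17.1 and tested by permutation (exact for 6 or fewer mice, otherwise 100000 permutations within groups). Promoter sequences came from the RefSeq table of GRCm38.p6, and 15099 of 21056 array gene names (71.7%) matched RefSeq symbols. The gene set and lists were chosen with earlier results of these data known. The naming rule took all 10 genes, up to 2 called genes in each direction per list for PCN in WT mice, and the 5 genes most like *Ppara* and *Fgf21*. Other list genes were named after their values were seen. The lists were PPARα targets, PPAR partners, FGF receptors and signalling, *Fgf21* regulators, CREB-H, PGC-1α and PPARγ targets, fasting and glucagon genes, and markers of hepatocytes, adipocytes, Kupffer, endothelial, stellate and bile duct cells, lymphocytes, pancreas and blood. Alternatives covered scaling, background correction, the filter, washing batch, slide, replicate number, the arrays fitted and each array left out. The fit was tested on simulated data.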

Additional observations from a re-analysis of the deposited data

Results flagged for a closer look

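In the *Fgfr4* probe, Pxr-/- PCN replicate 1 stood at a log2 signal of 12.05, apart from the other mice of its group, of which the nearest was at 11.75. In *Creb3l3*, WT CONT replicate 3 stood at 15.57, below the nearest mouse of its group at 15.71. These were 2 of 40 gene and group combinations tested for a single distant sample by Dixon's criterion, which chance meets in about 1 in 20. The PCN effect on *Ppara* differed between the genotypes by -0.87 in the limma interaction term (adjusted p = 8.8e-04), more negative in WT than in Pxr-/- mice.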

How the results depend on the processing

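Over 1729 recomputed values, 1592 kept their direction and side of the threshold, or moved by less than the spread between mice, and 58 changed sign. A further 45 fell short of a threshold they had met, 2 met one they had missed, and 32 moved in other ways. The WT change of *Ppara* was called under every alternative tried, also within both washing batches. Within washing batch 2, which has 2 WT PCN arrays, the WT change of *Fgf21* was -2.09 (adjusted p = 0.15) and the *Ppara* interaction -0.60 (adjusted p = 0.21), and 1 of the 10 genes was called in WT mice, 0 in Pxr-/- mice, 0 for the interaction and 0 between genotypes under PCN. Within batch 1, 0 were called in Pxr-/- mice. Between genotypes under PCN, 0 were called on the deposited values and with arrays of 1 replicate number stacked (an alternative chosen after seeing the data), and 1 was called with arrays stacked by group, with processed signal, with normexp background, without the filter and without the washing batch term. Leaving out arrays gave 1 to 2. The cause was not tested.

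Each value that changed sign was not called as reported. *Pparg* in WT mice was -0.0036 with 75th percentile scaling, -0.00059 on processed signal, -0.0077 with normexp, -0.0041 without a batch term, -0.046 within batch 1 and -0.0018 with only the groups compared. *Vnn1* in Pxr-/- mice was 0.0031 within batch 1, and *Ppard* there was -0.10 within batch 2. For the interaction, *Creb3l3* was 0.066 on deposited values and 0.046 stacked by replicate, *Klb* was 0.25 within batch 2, and *Ppard* was 0.072 on deposited values, 0.15 within batch 2 and 0.062 stacked by replicate. *Ppara* between control mice was 0.0062 on processed signal. *Fgf21* between genotypes under PCN was -0.13 on deposited values, -0.0073 with normexp, -0.11 within batch 2 and -0.12 stacked by replicate. The group-centred r of *Ppara* with *Fgf21* was -0.0062 on processed signal, and in Pxr-/- PCN mice it was -0.18 stacked by group and -0.076 on processed signal.

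With each array left out, *Fgf21* between genotypes under PCN ran from -0.27 to 0.30. *Ppard* ran from -0.017 to 0.12 in WT mice and from -0.097 to 0.048 for the interaction. *Pparg* ran from -0.11 to 0.13 in WT mice, from -0.17 to 0.029 in Pxr-/- mice and from -0.020 to 0.22 for the interaction. In Pxr-/- mice, *Rab30* ran from -0.23 to 0.013 and *Vnn1* from -0.38 to 0.046. The r of *Ppara* with *Fgf21* ran from -0.060 to 0.73 in WT CONT and from -0.28 to 0.68 in Pxr-/- PCN mice.

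Replicate numbers were not used as pairs in the main fit, and whether they pair the mice was not settled. Of 33 same-number pairs, 11 correlated over 0.1 in their deviations. Their median was 0.067 (highest 0.489), against -0.021 for pairs of other numbers from different groups. Of the 23 arrays, 7 correlated best with their own number. With the replicate number as a block, *Pparg* in WT mice was -0.014, the *Ppard* interaction 0.00016, and 1 gene was called between genotypes under PCN. The block ended the WT call of *Rab30* (-0.79, adjusted p = 0.071), leaving 3 genes called in WT mice, and left 5 CREB-H genes called lower and 1 higher. That block moved the genes called in WT mice from 504 lower and 798 higher to 497 and 802. On the deposited values the PPARα targets called lower in WT mice were 8 in place of 13. The share of calls that were higher between genotypes under PCN was 47.1% with 75th percentile scaling, against 34.9%.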
